A study of Arabidopsis thaliana with 6 samples.

Results

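The 4 B2-type cyclins of Arabidopsis thaliana, CYCB2;1 to CYCB2;4, and its B3-type cyclin, CYCB3;1, were followed across cells sorted by DNA content. They were chosen by family name and gene identifier, and make up 5 of the 32833 genes in the deposited count table. RNA was sequenced from root-tip protoplasts, which are root cells freed from their walls, of seedlings 7 days old. All plants carried the genotype written Col0/H2B-RFP/CDT1a-GFP, that is, the Col-0 strain with a red-tagged histone H2B and a green-tagged CDT1a, a replication licensing protein. Nothing in the labels names the promoters that drive these reporters, and every gate carries both of them. Fluorescence-activated sorting gave a G1 gate (2n DNA content), an S gate (between 2n and 4n) and a G2M gate (4n), each with 2 libraries. A 4n gate holds cells before and in mitosis and also cells that stay at that DNA content, and the gates do not separate these. How far cells of the neighbouring gates also fell into the S gate was not tested.

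B-type cyclins bind cyclin-dependent kinases and give them their activity at entry into mitosis. The anaphase-promoting complex then marks the cyclins for destruction, and the cell leaves mitosis. In plants, transcription of many B-type cyclins in G2 and M is driven by MYB3R factors, which bind the mitosis-specific activator element, whose core reads AACGG. In rice, a B2-type cyclin is known as a partner of the plant-specific CDKB2 kinase, and Arabidopsis CYCB3;1 is known for a role in male meiosis, where it restrains untimely wall formation.

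CYCB2;1 (AT2G17620) lies on the forward strand of chromosome 2 from 7664055 to 7666522 (build TAIR10.1), and CYCB2;2 (AT4G35620) on the forward strand of chromosome 4 from 16901596 to 16904001. CYCB2;3 (AT1G20610, 7134659 to 7137828), CYCB2;4 (AT1G76310, 28627694 to 28630789) and CYCB3;1 (AT1G16330, 5582387 to 5587461) all lie on the reverse strand of chromosome 1. None of the 5 genes overlapped another annotated gene. By coding sequence the B2-type cyclins fell into pairs, with 82.4% identical bases between the genes on chromosomes 2 and 4 (the first pair) and 81.8% between those on chromosome 1 (CYCB2;3 and CYCB2;4, the second pair). Other combinations of members shared between 63.8% and 66.8%. Gaps were left out of these shares, so those with CYCB3;1 rest on 1262 to 1361 of its 1947 coding bases. The B3-type cyclin was set apart by its structure, with 23 coding exons and 1947 coding bases, against 10 or 11 exons and 1290 to 1380 bases in the B2-type cyclins. The longest exact run shared by the coding sequences of any 2 members was 30 bases, within the first pair, so the members are related but not near-identical copies.

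The sequences upstream of the annotated gene starts are shown because the MYB3R element is a known link between this family and the cell cycle. They come from the RefSeq copy of TAIR10.1, read in the direction of each gene up to its first annotated base, at chr2:7663755-7664054 (forward), chr4:16901296-16901595 (forward), chr1:7137829-7138128 (reverse), chr1:28630790-28631089 (reverse) and chr1:5587462-5587721 (reverse). Each is 300 bases long, except 260 for the B3-type cyclin, where the rest lies in a neighbouring gene. Capitals mark AACGG or, for a match on the other strand, CCGTT.
CYCB2;1: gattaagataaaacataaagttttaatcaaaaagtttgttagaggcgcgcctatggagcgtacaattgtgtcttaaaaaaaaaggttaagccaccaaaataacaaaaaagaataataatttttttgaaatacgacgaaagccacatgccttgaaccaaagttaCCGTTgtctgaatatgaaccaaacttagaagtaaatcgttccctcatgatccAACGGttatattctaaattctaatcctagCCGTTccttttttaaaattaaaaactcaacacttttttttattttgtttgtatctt
CYCB2;2: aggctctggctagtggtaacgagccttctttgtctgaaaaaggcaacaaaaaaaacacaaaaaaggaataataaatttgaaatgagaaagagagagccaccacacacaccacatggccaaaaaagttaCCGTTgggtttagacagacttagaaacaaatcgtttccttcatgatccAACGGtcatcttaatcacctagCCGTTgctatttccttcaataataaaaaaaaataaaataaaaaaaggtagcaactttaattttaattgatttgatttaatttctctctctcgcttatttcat
CYCB2;3: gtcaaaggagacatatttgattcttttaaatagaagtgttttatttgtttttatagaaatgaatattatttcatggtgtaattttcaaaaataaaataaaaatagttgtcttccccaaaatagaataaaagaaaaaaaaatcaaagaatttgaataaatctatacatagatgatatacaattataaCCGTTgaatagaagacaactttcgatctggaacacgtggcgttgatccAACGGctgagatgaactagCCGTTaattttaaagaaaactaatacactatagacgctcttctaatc
CYCB2;4: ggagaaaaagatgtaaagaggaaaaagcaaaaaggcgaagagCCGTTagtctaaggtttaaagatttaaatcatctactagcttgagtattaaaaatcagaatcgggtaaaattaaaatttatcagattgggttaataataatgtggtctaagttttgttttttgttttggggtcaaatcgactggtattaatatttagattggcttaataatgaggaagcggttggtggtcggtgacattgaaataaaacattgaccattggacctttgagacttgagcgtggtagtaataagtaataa
CYCB3;1: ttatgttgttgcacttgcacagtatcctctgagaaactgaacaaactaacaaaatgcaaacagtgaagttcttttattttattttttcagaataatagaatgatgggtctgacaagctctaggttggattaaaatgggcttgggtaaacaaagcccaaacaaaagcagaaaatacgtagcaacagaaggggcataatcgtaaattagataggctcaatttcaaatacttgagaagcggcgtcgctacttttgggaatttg

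The first pair and CYCB2;3 each held 3 matches, in the same order and orientation (CCGTT, then AACGG, then CCGTT). In the order printed the 3 matches spanned 86, 75 and 72 bases, and the last of them ended 51, 97 and 42 bases before the gene start. Around the middle match all 3 genes carried the 11-base run tgatccAACGG, and around the last match the 9-base run ctagCCGTT, runs found upstream of 0.113% and 0.164% of genes. CYCB2;4 held 1 match, far upstream, and the B3-type cyclin held none in its 300 bases. The 2 members of the second pair thus differed upstream while alike in coding sequence. Of 27443 protein-coding nuclear genes, 23.4% held at least 1 AACGG on either strand in a window of this length. At least 3 were held by 0.958%, and 0.0692% (19 genes) held the ordered arrangement within 100 bases. The arrangement and the 2 shared runs were defined from the first pair and CYCB2;3, which are among the genes counted. Their shares are therefore no independent measure of how rare they are. Holding 3 or more was not confined to the B2-type cyclins. The B1-type cyclins, taken up below, held 3, 4, 3, 0 and 0 matches in the order of their numbers. Of the other cell cycle genes listed below, SCL28 and MYB3R3 held 4 each, OSD1 held 3 and the rest held 0 to 2. Whether these genes share the ordered arrangement was not tested. The longer form CNAACGG, a subset of the AACGG matches, was found in all 4 B2-type windows and in 5.24% of all genes, and TTTNNCGC, a form of the E2F site, was found in none of the 5 and in 6.78% of all genes. In the 300 bases after the gene start, which hold transcribed sequence, AACGG matched 3 times in CYCB2;4 and 1 time each in its pair mate and the B3-type cyclin, where 29.8% of genes had at least 1 match and 1.22% at least 3. A match is a run of letters, and its use by any factor was not measured.

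**Figure D1:**
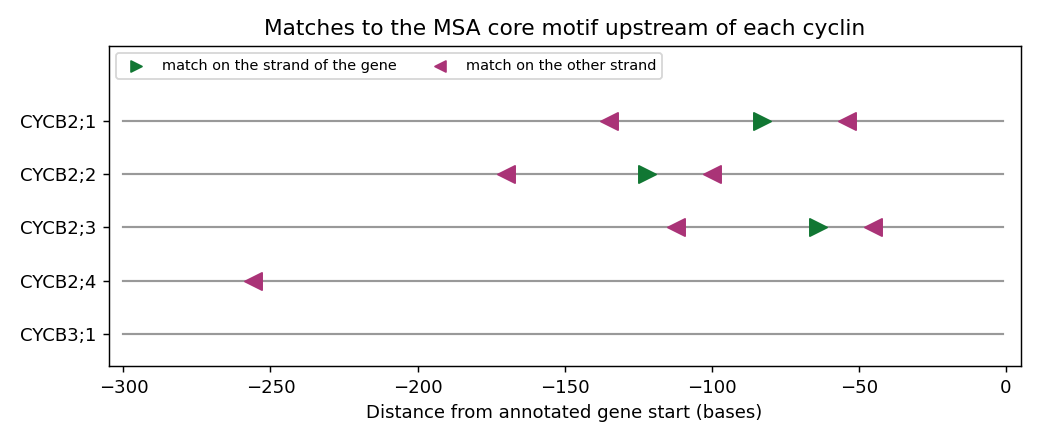
Matches to the core of the mitosis-specific activator element upstream of each cyclin, by distance in bases from the annotated gene start, with the direction of each arrow showing the strand. The first 3 genes show the same run of 3 matches, the last B2-type cyclin has 1 match and the B3-type cyclin has none.

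Total counts ran from 13114711 in S replicate 2 to 208406910 in S replicate 1, and a count of 3, taken as the floor of detection, was worth 0.01355 to 0.235 CPM (reads of a gene scaled to a fixed library total, here with TMM factors). Every member was far above this floor, with 140 to 15044 counts in each library. Whether replicates came from separate plants is not given in the sources used here, so p-values measure the spread between these libraries only, which may be technical. Known root regulators were detected: SMB of the root cap, PLT2 of the meristem and GL2 of the epidermis each exceeded 10 CPM in all 6 libraries, while WOX5, which marks the quiescent centre, stayed below 1 CPM in all of them. Marker lists of 4 genes each also moved with the gates, and their part in the results below was not tested. All 4 root cap markers fell from G1 to G2M, where 17.1% of all genes tested fell and 23.2% rose. Their summed level was 461 to 539 CPM in G1, 359 to 368 in S and 100 to 109 in G2M. All 4 phloem markers fell as well, with sums of 63.0 to 70.3, 16.0 to 24.1 and 12.8 to 13.6 CPM. Of the stem cell niche and meristem markers PLT2 and BBM rose and the other 2 did not pass, with sums of 82.7 to 88.1, 117 to 142 and 116 to 129 CPM. Of the endodermis markers SCR and MYB36 rose and the other 2 did not pass, with sums of 4.77 to 6.30, 7.29 to 8.96 and 18.6 to 25.5 CPM. These sums were mostly SCR, at means of 4.9, 6.8 and 19.5 CPM, while MYB36 averaged only 0.18, 0.18 and 1.47 CPM. The xylem sums of 39.8 to 63.5, 103 to 143 and 130 to 150 CPM followed 1 gene, ACL5, at means of 42.6, 114 and 129 CPM, while VND6, VND7 and CESA7 did not pass in any comparison. The epidermis and hair sums of 101 to 112, 84.7 to 93.5 and 104 to 108 CPM held changes in both directions from G1 to G2M, since GL2 rose 4.21-fold (edgeR adjusted p = 3.44e-06), WER fell to 0.557 times its G1 level (edgeR adjusted p = 0.000173), COBL9 fell and EXPA7 was not tested. Green leaf markers stayed at or below 4.28 CPM in sum and 2 pollen markers at or below 6.05 CPM in every library. Markers with 0 counts were VND6 and NAC086 in S replicate 2, COBL9 in G2M replicate 1, RBCS1A in G1 replicate 1 and LHCB2.1 in G2M replicate 2. Mitochondrial genes took 6.53% to 8.23% of counts in G1 against 2.94% to 3.67% in the other gates. In such bulk samples a lower level can mean fewer cells with the transcript or less of it per cell, and these cannot be told apart.

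All 5 cyclins were low in the G1 gate (2n) and rose in the S gate (between 2n and 4n). The rises ran from 5.09-fold for CYCB2;3 to 17.1-fold for CYCB2;4, with a median log2 fold change of 3.23. Over all 25364 genes tested, 13.9% rose and 7.28% fell in this comparison (21.2% changed at an adjusted p below 0.05), and the median log2 fold change was 0.08. Both S libraries lay above both G1 libraries for every member, but the share of all genes separated in this way was not counted. In the list of all genes by rise, the members held ranks 45 to 296.

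CYCB2;1 stood at 1.91 and 2.12 CPM in the G1 libraries (replicates 1 and 2), and the S libraries reached 34.0 and 31.1 CPM. These values rest on 249 and 140 counts in G1 and 7527 and 397 counts in S. Its levels were the lowest of the 5 in G1, also per exon length, and its rise of 4.03 ± 0.20 (log2 fold change ± SE, edgeR adjusted p = 5.73e-08) was the second steepest of the 5. Its closest relative CYCB2;2 stood at 4.75 and 3.79 CPM in G1, against 32.5 and 37.9 CPM in S, a rise of 3.03 ± 0.18 (edgeR adjusted p = 2.97e-07), from 621 and 250 counts in G1 and 7190 and 484 in S. The 2 genes met at similar levels in S from different levels in G1. Per exon length, the first was at 0.421 and 0.588 times the other in G1, 1.10 and 0.861 times in S, and 0.936 and 0.801 times in G2M.

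CYCB2;3 stood at 8.23 and 9.74 CPM in G1, and its S libraries at 46.5 and 44.7 CPM, a rise of 2.35 ± 0.16 (edgeR adjusted p = 1.16e-06), from 1075 and 643 counts in G1 and 10284 and 570 in S. It was the highest of the 5 in G1, also per exon length, and the one with the smallest rise. Its pair mate CYCB2;4 began lower, at 3.18 and 3.05 CPM in G1, and reached 47.0 and 60.4 CPM in S, a rise of 4.10 ± 0.17 (edgeR adjusted p = 1.88e-08), from 415 and 201 counts in G1 and 10401 and 770 in S. Per exon length the first was at 2.99 and 3.70 times the other in G1, 1.14 and 0.856 times in S, and 0.976 and 0.846 times in G2M, so this pair too met outside G1. The B3-type cyclin stood at 7.63 and 7.05 CPM in G1, against 68.0 and 70.3 CPM in S, a rise of 3.23 ± 0.16 (edgeR adjusted p = 5.73e-08), and was the highest of the 5 in S, also per exon length. Its counts were 996 and 465 in G1 and 15044 and 897 in S.

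**Figure D2:**
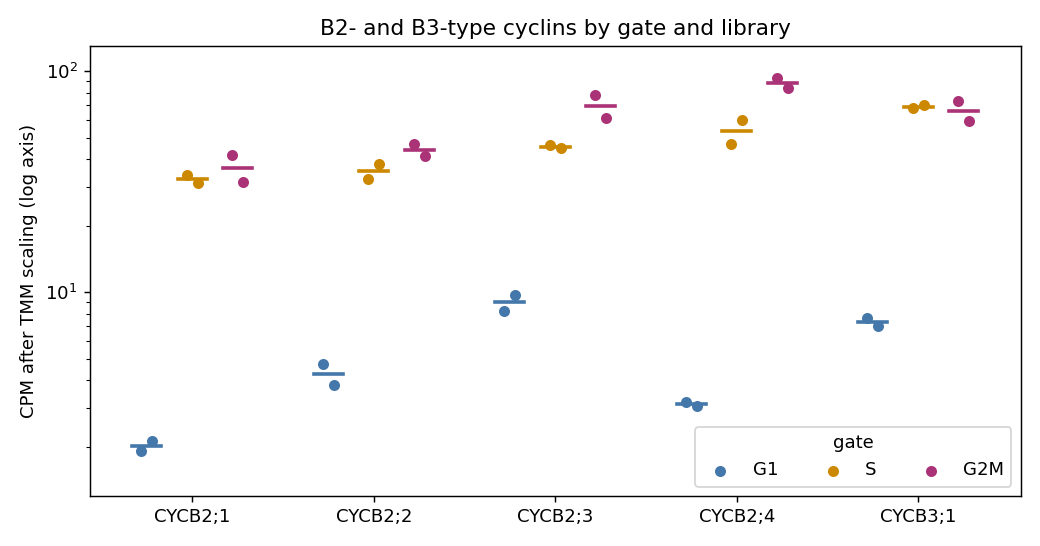
Levels of the 5 cyclins in CPM after TMM scaling (log axis), with a point for each library and a line for the mean of each gate (2 libraries). Each G1 library lies at or below 9.74 CPM and each S or G2M library at or above 31.1 CPM.

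Between the S gate (between 2n and 4n) and the G2M gate (4n), 2 of the 5 members rose. They were the second pair, while the first pair and the B3-type cyclin did not pass the test, and whether the changes differed between members was not tested gene by gene. Over all genes 9.46% rose and 10.1% fell in this comparison (19.6% changed), and the median log2 fold change was −0.10, against 0.33 for the 5 cyclins.

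CYCB2;4 stood at 92.6 and 83.8 CPM in G2M (replicates 1 and 2), against 47.0 and 60.4 CPM in S. Both G2M libraries lay above both S libraries, and the rise of 0.72 ± 0.15 (log2 fold change ± SE, 1.65-fold) passed (edgeR adjusted p = 0.00595). Its pair mate stood at 78.2 and 61.3 CPM in G2M, also clear of both S libraries, a rise of 0.61 ± 0.16 (1.53-fold, edgeR adjusted p = 0.0180). Both calls were lost without G2M replicate 1 (edgeR adjusted p = 0.0821 and 0.216), with log2 changes of 0.68 and 0.46, and no other member was called in that fit. The second call was also lost with limma on log2(TPM + 1), at 0.46 (adjusted p = 0.0650).

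CYCB2;2 stood at 46.7 and 41.3 CPM in G2M, above both S libraries, but its log2 change of 0.33 ± 0.17 did not pass (95% interval −0.03 to 0.69, edgeR adjusted p = 0.178). Without S replicate 2 it did, at 0.48 (edgeR adjusted p = 0.0488), and 3 members were then called. CYCB2;1 stood at 41.7 and 31.6 CPM, overlapping its S libraries, with a log2 change of 0.16 ± 0.17 (95% interval −0.21 to 0.53, edgeR adjusted p = 0.529). For the B3-type cyclin the G2M libraries stood at 73.2 and 59.2 CPM, on either side of the S libraries, with a log2 change of −0.06 ± 0.14 (95% interval −0.38 to 0.25, edgeR adjusted p = 0.773). Intervals that span 0 do not show that these genes stayed level. Behind the G2M values lay 625 to 1390 counts per member in replicate 1 and 942 to 2500 in replicate 2.

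Across the full step from G1 to G2M all 5 cyclins rose, where 23.2% of all genes tested did so and 17.1% fell (40.3% changed). The comparison shares its G1 libraries with that of S and G1, and its G2M libraries with that of G2M and S. CYCB2;4 rose most, by 4.82 ± 0.18 (log2 fold change ± SE) or 28.3-fold (edgeR adjusted p = 7.55e-09), the rank 24 rise among 25364 genes. CYCB2;1 rose by 4.18 ± 0.20 (18.2-fold) and its pair mate by 3.36 ± 0.18 (10.2-fold). The B3-type cyclin rose by 3.17 ± 0.16 (8.99-fold) and CYCB2;3 by 2.96 ± 0.17 (7.76-fold). The median log2 change of the 5 was 3.36, against −0.14 over all genes tested. With upper-quartile factors in place of TMM the median of all genes moved to −0.10 for S against G1 and −0.36 for G2M against G1, and all 5 members still rose in both.

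**Figure D3:**
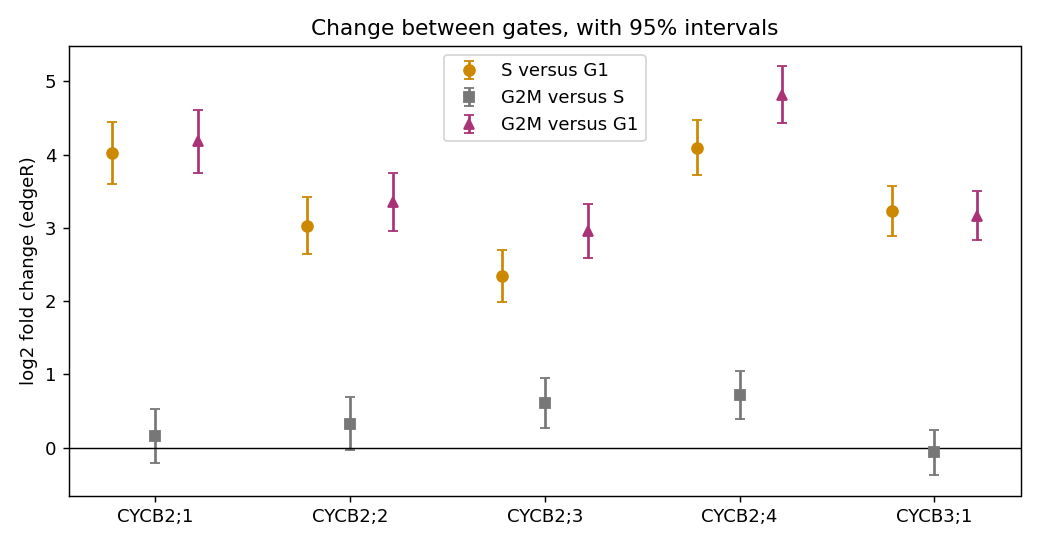
Log2 fold changes of the 5 cyclins between gates, with 95% intervals from the fit to all 6 libraries. All changes from G1 lie at or above 1.99 with their intervals, and between S and G2M the intervals of the second pair lie above 0.

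Levels of different genes can be compared only per length, so TPM, a level per exon length scaled to the same total in every library, was computed from counts and exon lengths. Summed over the 5 cyclins, the G1 libraries held 21.9 and 22.4 TPM, the S libraries 206 and 202 TPM and the G2M libraries 261 and 213 TPM. In G1 the order by TPM was CYCB2;3, the B3-type cyclin, CYCB2;2, CYCB2;4 and CYCB2;1, at means of 7.55, 6.14, 4.14, 2.26 and 2.05, and no neighbours in it overlapped. In S the B3-type cyclin came first at a mean of 58.3 TPM, clear of the rest. By mean the second pair followed, its members in reverse of the G1 order (39.1 and 38.6), and then the first pair (34.3 and 33.5). The members of each pair overlapped, and so did the pairs. In S replicate 1 CYCB2;1 stood at 36.35 TPM and CYCB2;4 at 35.87 TPM. In G2M the second pair came first, in the same inner order at 58.8 and 53.8 TPM, ahead of the B3-type cyclin at 50.9 and the first pair, whose members stood at 39.2 and 34.2 TPM. Neighbours in that order overlapped, except the B3-type cyclin and the gene after it. The last gene in the G1 order had the lowest mean in each gate. The share of CYCB2;4 in the summed level was at most 10.4% in G1, 17.4% to 21.0% in S and at least 23.9% in G2M. Its pair mate held a smaller share outside G1, with 31.2% to 37.0% in G1, 18.0% to 19.9% in S and at most 23.3% in G2M. The B3-type cyclin held 26.7% to 28.8% in G1, 28.2% to 29.0% in S, then 21.2% to 21.8% in G2M, lower in both G2M libraries than in all the others.

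**Figure D4:**
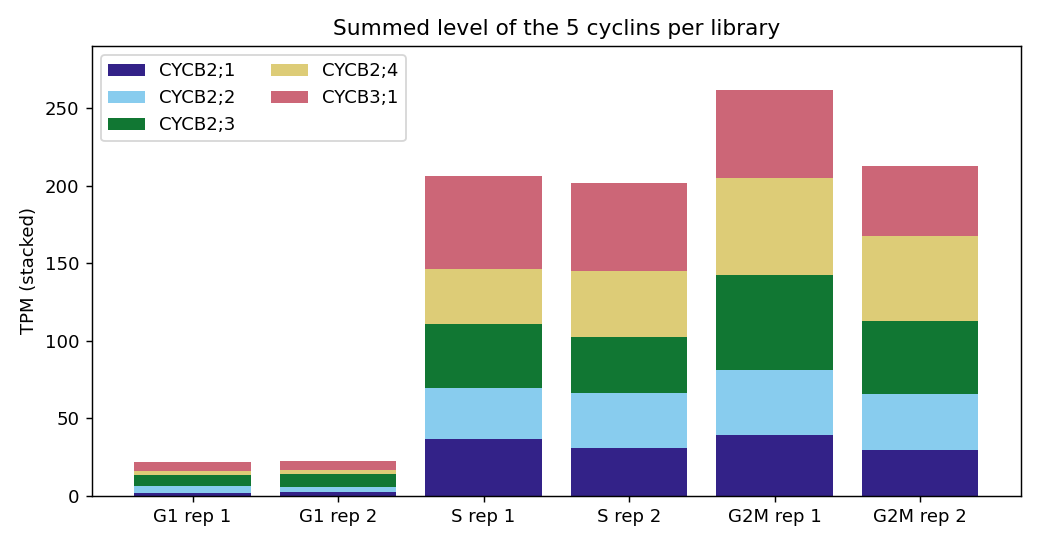
Summed level of the 5 cyclins in TPM in each library, stacked by gene (replicates as rep). The G1 libraries reach 21.9 and 22.4 TPM, and the S and G2M libraries lie between 202 and 261 TPM.

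The ratio of the B3-type cyclin to the summed B2-type cyclins, taken per exon length within each library, does not depend on scaling between libraries. It stood at 0.405 and 0.364 in G1, 0.409 and 0.393 in S, then 0.278 and 0.269 in G2M. Both G2M libraries lay below all others, and G1 and S overlapped. On the log2 scale the ratio was −1.87 ± 0.03 in G2M (SD, n = 2), against −1.32 ± 0.04 in S and −1.38 ± 0.11 in G1, differences of −0.55 between G2M and S and −0.49 between G2M and G1. An exact two-sided permutation test gave p = 0.333 for each, the smallest it can give with 2 libraries against 2, and p = 0.667 for S against G1. Adjusted over these 3 comparisons by the Benjamini-Hochberg method, the exact p-values were 0.500, 0.500 and 0.667, so none of them passed.

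Genes with the most similar profile over the 6 libraries were found by the root mean square difference of log2 CPM, each gene centred on its own mean, among 5871 other genes. This is a description over libraries that share their gates. CYCB2;1 was closest to CYCB1;1 (0.17), a B1-type cyclin, then to POK2 (0.20), a kinesin that guides the phragmoplast, and PLE (0.21), a microtubule bundler of the phragmoplast also called MAP65-3. CYCB2;4 was closest to CYCB1;4 (0.098), then to PLE (0.15) and to ATK5 (0.19), a spindle kinesin. The B3-type cyclin was closest to the mitotic kinase CDKB2;2 (0.12) and to MYB3R4 (0.15), an activator of mitotic genes, followed by IMPA-6 (0.16), an importin. CYCB2;2 was also close to IMPA-6 (0.083), to EB1C (0.13), which binds growing microtubule ends, and to the receptor-like kinase IMK2 (0.15), with the B3-type cyclin in place 7 (0.18). CYCB2;3 was closest to MOS6 (0.14), another importin, to CHR24 (0.17), a chromatin remodeller, and to EHD2 (0.18), an endocytosis protein. Similarity of sequence and of profile did not go together in either pair. The difference of 0.87 within the second pair was the largest between any 2 members. The first pair differed by 0.46. In the order of their numbers, its genes were closer to the B3-type cyclin (0.44 and 0.18). Each was also closer to a member of the second pair (0.34 and 0.34), while the other member of that pair was farther away (0.70 and 0.62).

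Among B1-type cyclins, the sister group, 4 of 5 rose from G1 to S and to G2M, and the exception was CYCB1;5. For this list and the 4 below, the shares over all genes tested were 13.9% higher and 7.28% lower from G1 to S. They were 23.2% and 17.1% from G1 to G2M, and 9.46% and 10.1% from S to G2M. CYCB1;2 averaged 5.94 ± 1.74 CPM (SD, n = 2) in G1, 176 ± 22 CPM in S and 251 ± 25.1 CPM in G2M, and CYCB1;4 averaged 4.08 ± 0.493, 65.5 ± 5.08 and 110 ± 16.0 CPM. The exception stood at 6.81 and 6.41 CPM in G1, 10.01 and 4.31 CPM in S, and 1.93 and 2.01 CPM in G2M. It fell by 1.74 on the log2 scale from G1 to G2M (SE 0.39, edgeR adjusted p = 0.00297) and by 1.90 from S to G2M, where CYCB1;4 rose by 0.75 ± 0.15 and the other 3 did not pass, at 0.34 to 0.63. Per exon length the B2- and B3-type cyclins summed to 0.875 and 1.26 times the B1-type cyclins in G1, 0.583 and 0.551 times in S, then 0.507 and 0.485 times in G2M. Over this list and the 4 below, 25 of 37 genes (67.6%) were called from G1 to S, against 21.2% of all genes. From G1 to G2M 26 (70.3%) were called, against 40.3%. From S to G2M 9 (24.3%) were called, near the 19.6% of all genes. Without G2M replicate 1 the count was 1, where that over all genes went from 4960 to 1472.

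Of 7 kinase and CKS partners, 5 rose from G1 to S and the same number from G1 to G2M, while CDKA;1, the kinase present throughout the cycle, and the docking protein CKS1 passed in neither. CDKB2;1, a mitotic kinase found in plants, averaged 4.96 ± 1.37 CPM (SD, n = 2) in G1, 85.7 ± 8.21 in S and 90.4 ± 1.40 in G2M. CDKB2;2 averaged 3.09 ± 0.365, 30.7 ± 0.0190 and 30.8 ± 2.85 CPM. From S to G2M the log2 changes of these 2 kinases were 0.08 and 0.0024 and did not pass, and the 1 call of the list was the CDKA kinase, which rose by 0.49 ± 0.14 (edgeR adjusted p = 0.0316).

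Of 10 A-type cyclins, 4 rose from G1 to S (CYCA1;1 and every CYCA2 gene but CYCA2;3), and CYCA3;1 and CYCA3;2 fell. From G1 to G2M 5 rose, namely the same 4 and CYCA3;4, and none of the others passed. The first named, a mitotic cyclin, averaged 2.12 ± 0.188 CPM (SD, n = 2) in G1, 62.6 ± 3.35 in S and 48.7 ± 1.55 in G2M. CYCA2;2 averaged 2.15, 6.29 and 8.05 CPM. From S to G2M CYCA3;2 rose, while CYCA2;3 fell by 0.44 and CYCA2;4 fell by 0.50 on the log2 scale, at the step in which the second B2 pair rose.

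Of 8 activators and inhibitors of the anaphase-promoting complex, CDC20.1, CDC20.2 and CCS52B, which are activators, and the inhibitor OSD1 rose from G1 to S, and the endocycle activators CCS52A1 and CCS52A2 fell. CDC20.2 averaged 4.36 ± 1.23 CPM (SD, n = 2) in G1, 61.3 ± 5.69 in S and 53.5 ± 4.53 in G2M. CDC20.1 rose by 3.55 on the log2 scale from G1 to S and by 3.41 ± 0.28 from G1 to G2M. The same 4 rose from G1 to G2M, where CCS52A2 fell. From S to G2M CCS52A2 rose and OSD1 fell, by 0.54 ± 0.12.

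Of 7 regulators of mitotic transcription, MYB3R3, MYB3R4, TSO1 and SCL28 rose from G1 to S, and MYB3R1 with these from G1 to G2M, where MYB3R2 fell. MYB3R4 averaged 6.57 ± 0.533 CPM (SD, n = 2) in G1, 53.8 ± 3.44 in S and 48.2 ± 10.5 in G2M. SCL28, a regulator of G2 and mitotic genes, averaged 9.31 ± 2.02, 52.0 ± 13.4 and 86.8 ± 8.82 CPM, and was the 1 gene of this list called from S to G2M (0.75 ± 0.19, edgeR adjusted p = 0.0175).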

How the data were processed

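Per the submitters' processing notes, reads were handled with Trimmomatic 0.39, HISAT2 2.2.1 and featureCounts on TAIR10. The sources used here do not give counting options, strandedness or read length. Per the labels' protocols, cDNA was made with a SMART-Seq v4 kit. The deposited table used here holds the authors' raw read count per gene without normalization. A second deposited table, named TPM, has columns that do not sum as TPM should and was not used, so TPM was computed from counts and TAIR10.1 exon lengths (32548 nuclear genes).

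Testing used R 4.3.3 and edgeR 4.0.16 (TMM factors, filterByExpr, quasi-likelihood F test, 1 fit of 3 gates to 6 libraries). All 5 members were among the 25364 genes kept, and p-values were adjusted over all of these by the Benjamini-Hochberg method at 0.05. The SE is the log2 change divided by the square root of F. Alternatives used DESeq2 1.42.0, limma 3.58.1, other factors and filters, thinned libraries and each library left out. Library pairs differed by more than sampling noise (chi-square per degree of freedom of 6.86 or more), so none was taken as a duplicate. Floors cover counting error only.

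Named were all members, the 3 genes most alike each, the 2 of each list with the largest change from G1 to G2M, and list members counted at 5 or fewer. Alike genes had a symbol and at least 10 CPM in the highest gate. Members and lists were chosen with earlier results of these data known.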

Additional observations from a re-analysis of the deposited data

How the results depend on the processing

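The calls of all 5 cyclins from G1 to S and from G1 to G2M held in each of 14 alternatives, with log2 changes of 2.17 to 4.27 and of 2.67 to 4.89. From S to G2M the call was less firm: 1 cyclin, CYCB2;4, passed with limma on log2(TPM + 1), where CYCB2;3 gave 0.46 (adjusted p = 0.0650), and 0 to 3 passed when 1 library was left out. Single libraries also moved CYCB2;1 between −0.013 and 0.36 and the B3-type cyclin between −0.19 and 0.087 there, and thinned libraries gave 0.0097 for the latter. Genes called in the 5 pathway lists from S to G2M numbered 9, or 15 with limma-voom and 1 to 15 without 1 library (1 without G2M replicate 1, 2 without G2M replicate 2, 4 without S replicate 1, 15 without S replicate 2). The log2 ratio of the B3-type to the B2-type cyclins differed between S and G1 by 0.06, or by −0.015 to 0.14 without 1 library. The cause of these shifts was not tested.

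Deviations of same-numbered libraries from their gate means showed little correlation over genes (r of −0.05, 0.03 and −0.06). This cannot show whether the libraries were paired, since noise in genes with low counts also lowers r. With the replicate block 5, 2 and 5 cyclins were called from G1 to S, S to G2M and G1 to G2M, as without it, and 25, 10 and 26 pathway genes against 25, 9 and 26. Calls over all genes from S to G2M numbered 4960, or 1472 to 9378 without 1 library, from G1 to S 5373, or 9779 with limma-voom and 2753 to 6276 without 1 library, and from G1 to G2M 10226, or 6679 to 12720 without 1 library. Where 1 library was left out, the lone library of its gate was assumed to vary like the others. No result met the rules for a closer look, since groups of 2 libraries are too small for a test of outliers.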
